A study of Mus musculus with 20 samples.

Results

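Respiratory complex I, NADH:ubiquinone oxidoreductase, is the entry point of electrons from NADH into the mitochondrial respiratory chain. The genes described here are 35 nuclear genes that encode its subunits, matched by name among the 53465 gene identifiers of each library. Their list was chosen with earlier results of these data known. All 35 passed the filter on low counts, so that all of them were among the 15709 genes tested, and the annotation lists every one as protein coding. The libraries came from muscle of wild type mice and fall into 4 groups of 5: male trained, male non-trained, female trained and female non-trained. Polyadenylated RNA was sequenced from each, with a directional kit. The labels name neither the muscle, the strain, the age, the exercise protocol nor the time of collection, and nothing in them ties a library to an animal of its own, so that p-values measure only the spread between these samples.

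Complex I is L-shaped. Its arm in the matrix holds the N module, which oxidises NADH, and the Q module, which passes the electrons to ubiquinone, and its arm in the inner membrane pumps protons. The catalytic core is shared between nuclear genes and genes of mitochondrial DNA, and around it sit many accessory subunits, all of nuclear origin. In muscle, fibres rich in mitochondria carry much of the complex, and endurance exercise is a classical stimulus of mitochondrial content. By the assignment of subunits to parts of the complex used here, 8 of the 35 genes belonged to the N module, 7 to the Q module, 9 to the proximal membrane arm and 10 to the distal membrane arm. Ndufa6 and Ndufa7, counted in the Q module, were also tried in the N module. Ndufab1, the mitochondrial acyl carrier protein, sits in both arms. The core subunits among them were 6 (Ndufs1, Ndufs3, Ndufs7, Ndufs8, Ndufv1 and Ndufv2) and the accessory subunits 29.

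Total counts ran between 22043145 and 38483572 per library, and genes of mitochondrial DNA took 11.2 to 15.9% of them. Each member had between 653 and 14520 expected counts in a library, the lowest in Ndufb4 and the highest in Ndufs1. Markers of muscle fibres, Acta1, Ckm and Myh4 among them, were abundant throughout, with a summed level over 8 markers of 129291 to 147579 counts scaled to library size (CPM) in male trained, 133418 to 156055 in male non-trained, 130731 to 144677 in female trained and 109325 to 155537 in female non-trained libraries. The 8 slow fibre markers varied far more, from 348 to 6155 CPM in sum. Fewer cells of a type and less RNA per cell cannot be told apart in such bulk samples.

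The stretches of DNA upstream of the genes were read first, because the nuclear respiratory factor NRF1 is a known regulator of many nuclear respiratory genes. RefSeq promoter windows of 300 bases (250 before to 50 after the start, GRCm38.p6) were found for 32 of the 35 members, in 34 windows. Ndufs1, Ndufa2 and Ndufb9 had no entry. The NRF1 motif, GCGCA followed by any base and then GCGC, searched on both strands, was found in 8 of the 34 windows (23.5%), against 4.6% of all 32851 windows of the same length. The 7 genes were Ndufa11, Ndufa5, Ndufa6, Ndufa8, Ndufb4, Ndufs5 and Ndufs6. The YY1 motif AANATGGCG was found in 7 windows (20.6%), those of Ndufa7, Ndufa9, Ndufb11, Ndufc1, Ndufs4, Ndufs6 and Ndufs7, against 2.38% of all windows, and Ndufs6 held both motifs. The GABP motif CCGGAAGT was found in 1 window, that of Ndufs3 (2.94%, against 3.89% of all), and the ERRα motif NAAGGTCA in 3, those of Ndufb2, Ndufb4 and Ndufs5 (8.82%, against 4.69% of all). The following lines give the 110 bases upstream of the RefSeq start of 6 members, 5′ to 3′, with NRF1 matches in capitals. They are 5 of those with a match in this stretch, and Ndufs8, which had none. Ndufs8 is shown because it was lower in males over both training states at an adjusted p under 0.05, as were Ndufa11 and Ndufs5. That comparison was added after the values had been seen. Other members that passed there, Ndufb2, Ndufb3, Ndufb6, Ndufb10, Ndufv2 and Ndufa1, had no NRF1 match, and Ndufb9 had no window. With 1 library left out, Ndufv2, Ndufa1 and Ndufb3 passed in only 7, 6 and 3 of 20 fits. A link between the motif and the sex difference was not tested. Ndufa5 also had a match in this stretch, 26 bases before the start, and is not shown.
Ndufa11, chr17:56717652-56717761, plus strand: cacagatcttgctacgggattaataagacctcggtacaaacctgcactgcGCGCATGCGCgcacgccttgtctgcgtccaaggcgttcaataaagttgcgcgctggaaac
Ndufs5, chr4:123718187-123718296, minus strand: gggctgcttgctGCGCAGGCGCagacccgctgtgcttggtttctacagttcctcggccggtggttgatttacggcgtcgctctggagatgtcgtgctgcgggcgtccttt
Ndufa8, chr2:36049339-36049448, minus strand: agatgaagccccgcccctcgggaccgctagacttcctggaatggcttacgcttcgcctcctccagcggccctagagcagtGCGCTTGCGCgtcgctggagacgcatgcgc
Ndufs6, chr13:73328483-73328592, minus strand: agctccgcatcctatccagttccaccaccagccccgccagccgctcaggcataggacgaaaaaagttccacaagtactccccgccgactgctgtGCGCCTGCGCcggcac
Ndufb4, chr16:37654369-37654478, minus strand: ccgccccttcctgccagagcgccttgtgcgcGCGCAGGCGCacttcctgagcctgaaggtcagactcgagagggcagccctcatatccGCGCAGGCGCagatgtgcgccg
Ndufs8, chr19:3912775-3912884, minus strand: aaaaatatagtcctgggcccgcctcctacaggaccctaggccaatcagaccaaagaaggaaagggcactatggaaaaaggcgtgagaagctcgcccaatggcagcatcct
A match is a run of letters and was not tested for binding.

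The 35 genes were expressed at comparable levels, with few exceptions. Levels between genes were compared in TPM, which divides by transcript length. Mean TPM over the 20 libraries had a median of 220 over the 35 genes, and 31 of the 35 lay within 2-fold of it. Ndufb9 stood highest with 562 ± 66.5 TPM (SD, n = 20 here and for the other TPM levels), followed by Ndufb8 with 500 ± 59.7 TPM, both accessory subunits of the distal membrane arm. The core N module subunit Ndufv2, which carries an iron-sulfur cluster, came next with 417 ± 36.2 TPM.

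At the other end, Ndufa11 had 37.2 ± 5.07 TPM, which made the highest level 15.1 times the lowest. Without division by length, Ndufa11 had 76.3 CPM on average in female trained libraries, against 70.5 for Ndufb2. In TPM these genes had 41.7 and 237 there. The low TPM of Ndufa11, and with it the 15.1-fold span, thus rests on its assigned transcript length, which was not checked. Ndufb4 had 109 ± 11.2 TPM and Ndufs8 126 ± 17.4 TPM. Ndufb4 is uncertain: its reads may be split with Ndufb4c, an annotated processed pseudogene on chromosome 15, which was given 349 TPM on average. Ndufb4 had 653 to 1367 expected counts in a library and Ndufb4c 1484 to 2990. The counts of 16 members were whole in every library, while 19 had fractions in some, the mark of reads shared among genes. Another gene overlapped 18 members in the annotation, and the sources used here do not say whether counting used strand.

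The order of levels was fixed for few neighbours. Of the 34 pairs of neighbours, 3 kept their order in all 20 libraries: Ndufb9 above Ndufb8, Ndufb8 above Ndufv2, and Ndufb4 above Ndufa11. The other pairs changed order in at least 1 library, to unlike degrees. Of Ndufs6 and Ndufs1, the gene ranked higher by its mean was higher in 9 of 20 libraries. Ndufa6 stood above Ndufs5, and Ndufb6 above Ndufb3, in 19 of 20. Median levels by location were 218 TPM for the N module, 282 for the Q module, 194 for the proximal membrane arm and 233 for the distal membrane arm, with Ndufab1 at 308. The 6 core genes had a median of 284 TPM and the 29 accessory genes 219. The coefficient of variation over libraries ran between 7.15 and 17.2%. The 7 complex I genes of mitochondrial DNA were listed at 8166 (mt-Nd5) to 21241 TPM (mt-Nd1).

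**Figure D1:**
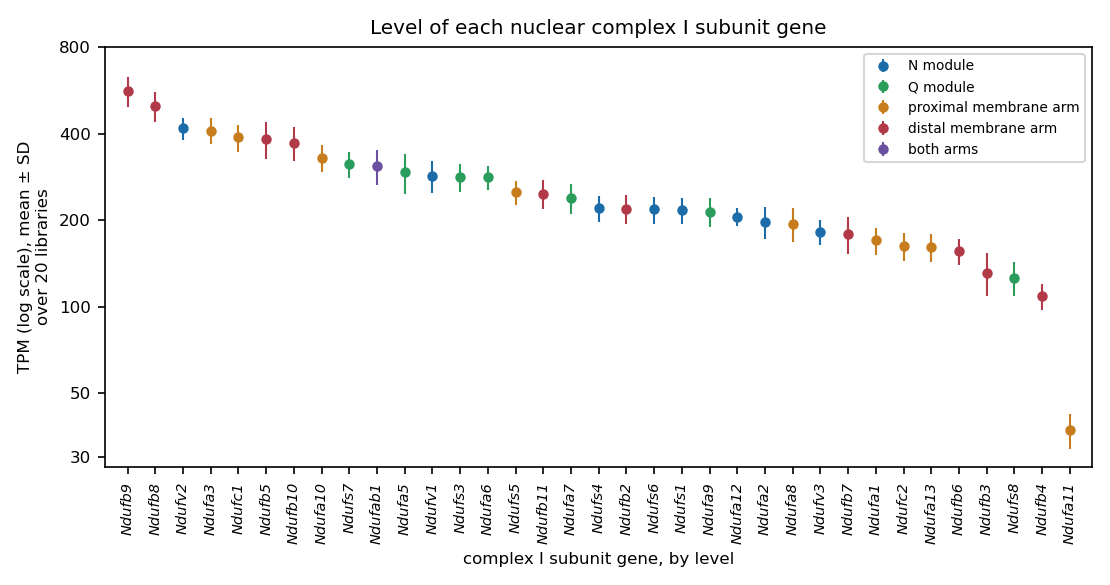
Mean TPM (log axis) of each of the 35 nuclear complex I subunit genes over 20 libraries, ordered by level and coloured by location in the complex, with bars of 1 SD. Ndufb9 at 562 TPM and Ndufb8 at 500 TPM stand at the top, 31 genes lie within 2-fold of the median of 220 TPM, and Ndufa11 stands apart at 37.2 TPM. This last value rests on the transcript length assigned to Ndufa11.

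The series asks how training changes muscle and its mitochondria. Averaged over both sexes, all 35 genes had a positive log2 fold change of trained over non-trained libraries, between 0.06 and 0.21 with a median of 0.16 (11.4% higher), while 50.6% of all genes tested were positive, with a median of 0.00. None of the 35 passed an adjusted p of 0.05 in edgeR's quasi-likelihood test, which called 0% of all genes as higher and 0.0127% as lower, and DESeq2 and limma-voom called none of the 35 either. The smallest adjusted p of a member was 0.382. At an unadjusted p under 0.05, 21 of the 35 (60%) were higher in trained libraries, against 4.69% of all genes, and 0 were lower, against 4.49% of all genes. The 35 genes were not independent of each other from library to library and were chosen with earlier results of these data known. This count is therefore a description. The median standard error of a member was 0.07, and the standard deviation of the 35 fold changes among themselves was 0.05. That standard error includes shifts of whole libraries that the genes share, so it is not the error of a difference between genes. Differences between the genes were not tested.

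The N module oxidises NADH. Its 8 genes had a median log2 fold change with training of 0.14 (0.06 to 0.21), and 4 of the 8 had an unadjusted p under 0.05. Ndufs1, a core subunit with several iron-sulfur clusters, had 402, 401, 299, 396 and 389 CPM in male trained libraries 1 to 5, against 388, 330, 303, 332 and 335 in male non-trained libraries. Female trained libraries had 454, 439, 399, 390 and 412 CPM, against 334, 365, 296, 374 and 390 in female non-trained libraries. In females the lowest trained library equalled the highest non-trained one at the precision given, and in males the groups overlapped through male trained library 3. The log2 fold change over both sexes was 0.21 ± 0.06 (SE, n = 10 and 10, adjusted p = 0.38).

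Ndufv2, the core neighbour of the NADH-binding subunit, had 255, 256, 195, 266 and 234 CPM in male trained libraries, against 245, 224, 216, 225 and 209 in male non-trained libraries. Among female trained libraries it had 281, 310, 265, 271 and 292 CPM, against 279, 255, 207, 248 and 234 in female non-trained libraries. The groups overlapped in both sexes, and the log2 fold change was 0.16 ± 0.06 (adjusted p = 0.42). Ndufv1, which binds NADH and the flavin, had a log2 fold change of 0.19 ± 0.08 (adjusted p = 0.48). The accessory subunit Ndufs4 had 0.15 ± 0.07 (adjusted p = 0.50). Ndufv3, Ndufs6 and Ndufa2 lay at 0.13, 0.12 and 0.13, and Ndufa12 had 0.06 ± 0.06, the lowest of the module.

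The Q module, which hands electrons to ubiquinone, had the highest median of the 4 locations, 0.19 (0.12 to 0.21), with 6 of 7 genes at an unadjusted p under 0.05. With Ndufa6 and Ndufa7 counted in the N module, the Q module had a median of 0.20, with 5 of 5 at that threshold. The N module then had 0.14, with 5 of 10. Ndufs8, a core iron-sulfur subunit, had 74.6, 80.0, 60.0, 76.0 and 74.7 CPM in male trained libraries, against 75.9, 64.1, 58.0, 63.3 and 60.5 in male non-trained libraries. The female trained libraries had 91.5, 110, 88.1, 81.1 and 91.6 CPM, against 81.4, 85.2, 65.7, 80.8 and 79.6 in female non-trained libraries. Most trained libraries lay above most non-trained ones of their sex, and the groups overlapped in both sexes. The log2 fold change was 0.21 ± 0.07 (adjusted p = 0.38).

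Ndufa9, an accessory subunit with a bound nucleotide near the ubiquinone site, had 180, 187, 152, 195 and 197 CPM in male trained libraries, against 186, 163, 153, 158 and 155 in male non-trained libraries. In female trained libraries it had 201, 241, 202, 182 and 209 CPM, against 189, 178, 132, 181 and 182 in female non-trained libraries. All male non-trained libraries lay inside the trained range, which reached down to 152 CPM through male trained library 3. Female non-trained libraries 1 and 5, at 189 and 182 CPM, reached the trained range at the precision given. The log2 fold change was 0.21 ± 0.07 (adjusted p = 0.38). Ndufa5 had 0.20 ± 0.08, Ndufa6 0.19 ± 0.07, Ndufs3 0.18 ± 0.06, Ndufs7 0.15 ± 0.07 and Ndufa7 0.12 ± 0.08. Each of the 6 core genes of the N and Q modules had an unadjusted p under 0.05, against 15 of the 29 accessory genes, with medians of 0.18 and 0.15. The difference between these medians was not tested.

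The proximal membrane arm had a median of 0.15 (0.06 to 0.19), with 5 of 9 genes at an unadjusted p under 0.05. Ndufa10, an accessory subunit on the matrix face, had 213, 226, 169, 236 and 241 CPM in male trained libraries, against 221, 180, 168, 185 and 186 in male non-trained libraries. Female trained libraries had 223, 257, 213, 220 and 235 CPM, against 218, 198, 182, 215 and 204 in female non-trained libraries. Male trained library 3 lay among the lowest non-trained ones, and female non-trained libraries 1 and 4 reached the range of the trained ones. Its log2 fold change was 0.19 ± 0.06 (adjusted p = 0.39).

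Ndufc1, a small membrane-spanning subunit, had 72.2, 73.6, 60.2, 77.8 and 69.7 CPM in male trained libraries, against 65.5, 71.0, 64.9, 69.6 and 55.9 in male non-trained libraries. Among female trained libraries it had 73.5, 92.7, 82.5, 74.2 and 78.6 CPM, against 86.4, 69.7, 63.9, 64.1 and 66.7 in female non-trained libraries. Only female non-trained library 1 entered the range of the female trained libraries, and the log2 fold change was 0.15 ± 0.07 (adjusted p = 0.49). Ndufa8 had 0.18 ± 0.09, Ndufa11 0.16 ± 0.07, Ndufa3 and Ndufc2 0.15 each, Ndufs5 0.12 ± 0.06 and Ndufa13 0.10 ± 0.07. Ndufa1, encoded on the X chromosome, had the lowest value of the arm, 0.06 ± 0.07 (adjusted p = 0.86).

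The distal membrane arm, the farthest from the ubiquinone site, had a median of 0.17 (0.07 to 0.21), with 5 of 10 genes at an unadjusted p under 0.05. Ndufb6, a small membrane subunit, had 60.4, 65.1, 49.5, 72.8 and 57.8 CPM in male trained libraries, against 60.1, 52.7, 56.4, 56.0 and 51.7 in male non-trained libraries. The female trained libraries had 69.7, 82.7, 74.3, 68.2 and 70.0 CPM, against 71.2, 64.8, 52.5, 63.5 and 59.5 in female non-trained libraries. Again female non-trained library 1 was the only one of its group inside the trained range, and the log2 fold change was 0.19 ± 0.07 (adjusted p = 0.40).

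Ndufb11, the second gene on the X chromosome, had 135, 141, 117, 149 and 142 CPM in male trained libraries, against 137, 121, 130, 132 and 120 in male non-trained libraries. In female trained libraries it had 160, 207, 148, 143 and 170 CPM, against 158, 140, 120, 130 and 135 in female non-trained libraries. The male groups overlapped over most of their range, the female groups through 1 library, and the log2 fold change was 0.19 ± 0.07 (adjusted p = 0.40). Ndufb5, Ndufb10 and Ndufb8 had 0.21, 0.20 and 0.18, Ndufb7 0.16 ± 0.08 and Ndufb9 0.14 ± 0.07.

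Ndufb3 had the largest unadjusted p of the 35, with 57.1, 61.9, 46.9, 60.8 and 62.8 CPM in male trained libraries, against 68.0, 49.2, 42.5, 58.9 and 49.7 in male non-trained libraries. Female trained libraries had 58.5, 91.0, 64.7, 64.8 and 68.2 CPM, against 74.2, 69.5, 46.8, 72.3 and 73.7 in female non-trained libraries. Here 4 of the 5 female trained libraries lay inside the range of the non-trained ones, and the log2 fold change was 0.08 ± 0.10 (adjusted p = 0.88). Ndufb2 had 0.09 ± 0.07 and Ndufb4 0.07 ± 0.08, so that 3 of the 5 lowest values of the 35 came from this arm.

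Ndufab1, the acyl carrier protein of both arms, had 103, 107, 76.9, 110 and 95.5 CPM in male trained libraries, against 107, 84.5, 79.2, 85.9 and 85.5 in male non-trained libraries. Among female trained libraries it had 107, 136, 101, 97.8 and 120 CPM, against 103, 97.0, 83.1, 102 and 107 in female non-trained libraries. Trained and non-trained libraries overlapped in both sexes, with a log2 fold change of 0.18 ± 0.08 (adjusted p = 0.50).

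**Figure D2:**
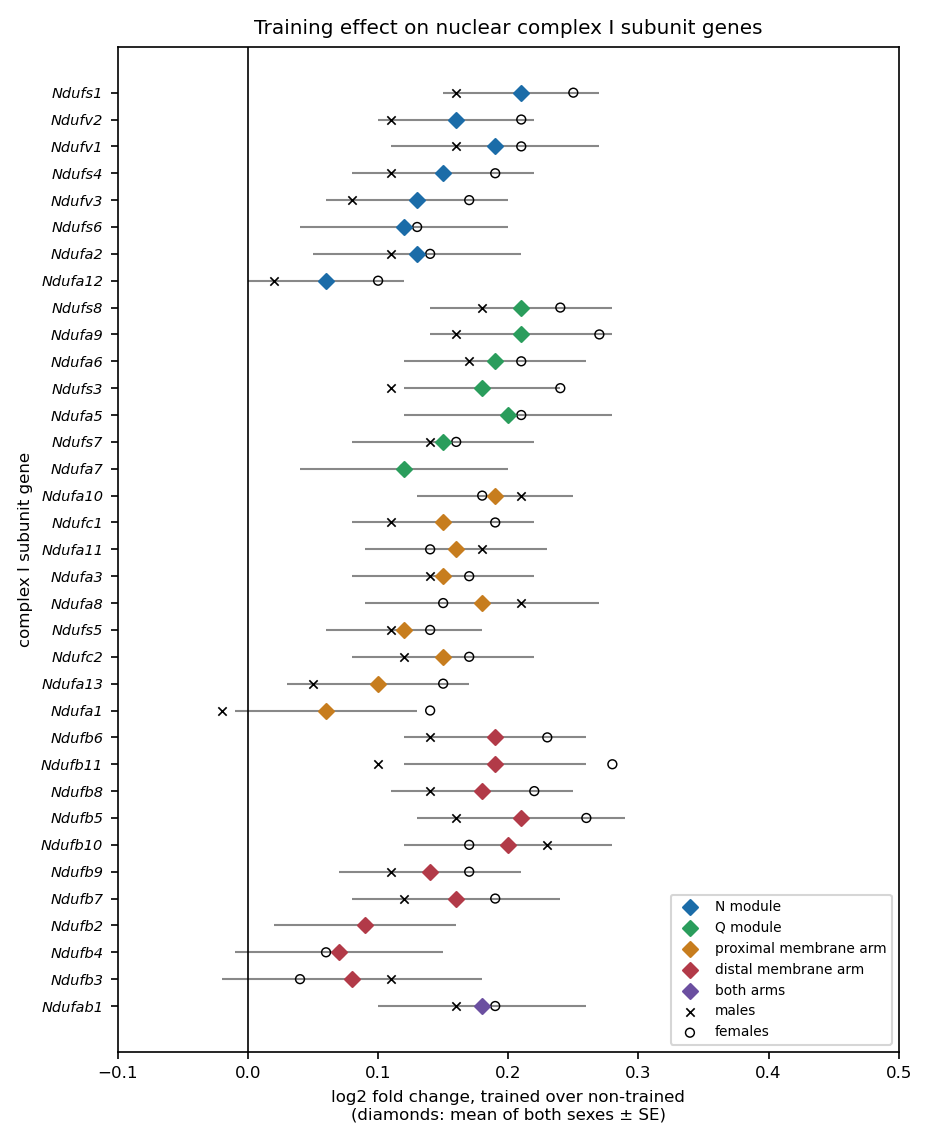
Log2 fold change of trained over non-trained libraries for each of the 35 genes, grouped by location, with diamonds for the mean of both sexes and bars of 1 SE, crosses for males and circles for females. All 35 diamonds lie between 0.06 and 0.21, and Ndufa1 in males, at -0.02, is the one value below 0.

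Within each sex the same comparison rested on 5 and 5 libraries. In males 34 of 35 genes were above 0 with a median log2 fold change of 0.12 (-0.02 to 0.23), and in females 35 of 35 with a median of 0.17 (0.04 to 0.28). Single libraries moved both values: the male median was 0.20 without male trained library 3, and the female median 0.10 without female trained library 2. No member passed an adjusted p of 0.05 in edgeR in males or in females, where 0% of all genes were called as higher in each, and DESeq2 called none of the members either. At an unadjusted p under 0.05, 2 genes were higher in males (5.71%, against 2.24% of all genes), Ndufa10 and Ndufb10, and 11 were higher in females (31.4%, against 4.27% of all genes). In neither sex did any member have all 5 trained libraries above all 5 non-trained ones by its unrounded values, which 0.535% of all genes did in males and 0.637% in females.

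The ends of the order were taken by these genes. In males the highest log2 fold changes belonged to Ndufb10 (0.23 ± 0.11), Ndufa10 (0.21 ± 0.09) and Ndufa8 (0.21 ± 0.12), and the lowest to Ndufa1 (-0.02 ± 0.10), Ndufa12 (0.02 ± 0.09) and Ndufa13 (0.05 ± 0.10). In females the highest belonged to Ndufb11 (0.28 ± 0.09), Ndufa9 (0.27 ± 0.10) and Ndufb5 (0.26 ± 0.12), and the lowest to Ndufb3 (0.04 ± 0.14), Ndufb4 (0.06 ± 0.11) and Ndufb2 (0.09 ± 0.10). The whole span within a sex is about the size of a few standard errors, and differences between genes in these orders were not tested. The difference itself, the effect in males minus that in females, had a median of -0.05 (-0.18 to 0.06), with 7 genes above 0 and 28 below. Its sign turned with 1 library left out: the median was 0.03 without female trained library 2 (23 of 35 above 0), 0.02 without male trained library 3 (23 above 0) or female non-trained library 3 (20 above 0), and 0.00 without male non-trained library 1 (18 above 0). With all libraries no member passed in edgeR (0% of all genes called in either direction) or in DESeq2. None had an unadjusted p under 0.05, against 2.03% of all genes upward and 2.15% downward. The smallest p-values belonged to the X-linked pair, Ndufb11 (-0.18 ± 0.13) and Ndufa1 (-0.16 ± 0.14), and to Ndufs3 (-0.13 ± 0.13), each with an adjusted p of 0.999.

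The 35 genes moved together from library to library within a group. In 12 of the 20 libraries at least 31 of the 35 genes lay on one side of the mean of their own group, and in the other 8 between 11 and 26 lay above it. The mean of a group includes each of its libraries, so that 1 library standing apart pushes the others to the opposite side. Female trained libraries 1, 3 and 4 had 3, 4 and 1 genes above a mean that included female trained library 2. The 12 libraries are thus not independent cases. Male trained library 3 had 0 of 35 above the mean of its group, with a median deviation of -0.29 on the log2 scale, and female non-trained library 3 had 0 of 35 with -0.24. Female trained library 2 had 34 of 35 above, with a median deviation of 0.28, and female non-trained library 1 had 34 of 35 with 0.23. The exceptions were single genes. Ndufb4 was below its group's mean by -0.19 in female trained library 2, where Ndufb4c had 2938 expected counts, the highest of that group, against 786 for Ndufb4. Ndufs1 was the 1 gene below in female non-trained library 1, at -0.07. The shifts were not limited to complex I. The mean log2 CPM over the genes of complexes II to IV and ATP synthase was also lowest of its group in male trained library 3 and female non-trained library 3. It was highest of its group in female trained library 2 and female non-trained library 1. The count of genes on one side of the group mean was not made for all genes.

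Correspondingly, the mean log2 CPM over the 35 genes varied between libraries about as much as it differed between trained and non-trained groups. It was 6.63 ± 0.16 in male trained, against 6.50 ± 0.09 in male non-trained libraries, and 6.83 ± 0.16 in female trained, against 6.65 ± 0.16 in female non-trained libraries (SD, n = 5 each). Ranges overlapped in both pairs, with 6.35 to 6.74 against 6.42 to 6.64 in males and 6.72 to 7.10 against 6.41 to 6.87 in females. As a share of all counts the 35 genes made up 0.423 ± 0.0327% in male trained, against 0.385 ± 0.0239% in male non-trained libraries, and 0.464 ± 0.0599% in female trained, against 0.409 ± 0.0417% in female non-trained libraries.

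Libraries that stood apart shifted the size of the training effect and left its sign. Over both sexes the median log2 fold change of the 35 was 0.12 without female trained library 2, 0.13 without female non-trained library 3, and 0.19 without male trained library 3 or female non-trained library 1. Male trained library 3 also had the highest mean of the macrophage markers, 5.90 log2 CPM against 3.50 to 4.64 in the other male trained libraries. Female trained library 3 had the lowest slow fibre mean of its group, 5.60 log2 CPM against 8.35 to 9.26 in the others, with a mean over the 35 genes of 6.76. Of the 4 libraries whose members stood apart from their groups, male trained library 3 and female non-trained library 3 had the lowest slow fibre means of their groups, 6.10 against 6.27 to 7.53 and 6.75 against 8.49 to 8.82 log2 CPM. Female trained library 2, at 9.26, and female non-trained library 1, at 8.82, had the highest of theirs. Female trained library 5 at 9.19 and female non-trained library 5 at 8.75 lay close to them. Female non-trained library 1 also had the highest muscle fibre mean of its group, 13.84. Its adipocyte, macrophage, endothelium and Schwann cell means were the lowest of that group, at 2.70, 1.72, 4.45 and 2.31. The 8 slow fibre markers had a median log2 fold change with training of 0.95 in males and 0.15 in females, with none called in either sex. None of the erythroid, Schwann cell, adipocyte and macrophage markers was called for training either. The 5 erythroid markers lay between -2.23 and -1.93 in males, 5 of 5 at an unadjusted p under 0.05, and between 0.25 and 0.50 in females. The 5 Schwann cell markers had medians of -0.65 in males and 1.09 in females, 4 of 5 at an unadjusted p under 0.05 in females. The 6 adipocyte markers had -0.07 in males and 0.77 in females, and the 6 macrophage markers 0.40 in males and 0.18 in females. Their part in the training values of the complex I genes was not tested.

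**Figure D3:**
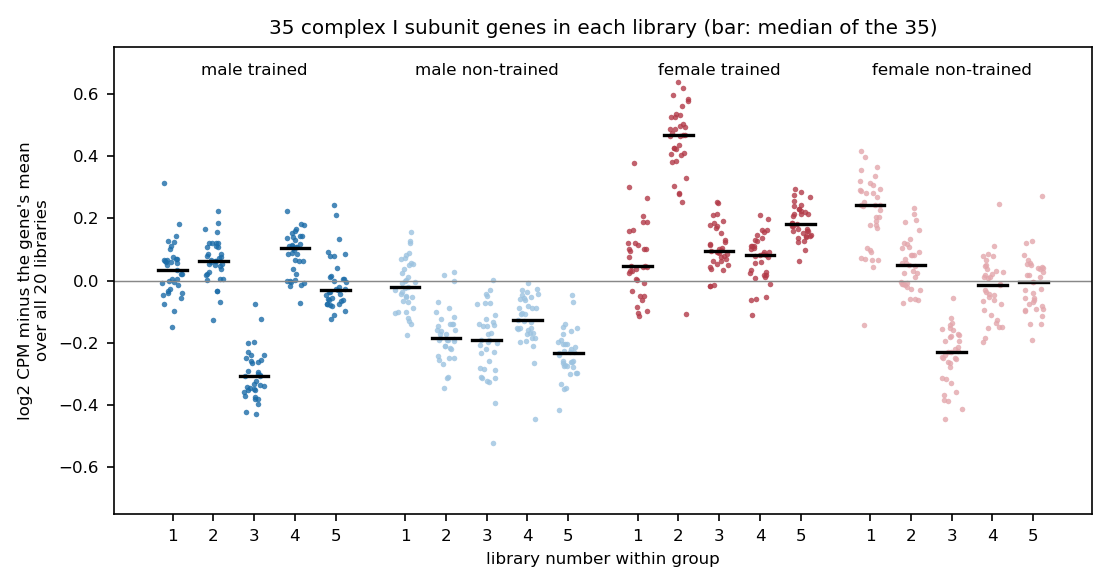
Log2 CPM of each of the 35 genes (points) minus its mean over all 20 libraries, by library and group, with a bar at the median of the 35. The points of a library move as a block: all but 1 lie high in female trained library 2, and all 35 lie below their group's mean in male trained library 3 and female non-trained library 3.

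The other genes of complex I were set beside the subunits. Assembly factors help to build the complex without staying in it. Of 18 listed, 17 were tested, and over both sexes they had a median log2 fold change with training of 0.11 (-0.04 to 0.29), with 13 above 0. None passed in edgeR (0% of all genes called as higher), in DESeq2 or in limma-voom, and 6 had an unadjusted p under 0.05 in edgeR. Acad9, an acyl-CoA dehydrogenase relative needed for assembly, had 0.18 ± 0.05 (adjusted p = 0.30), Ndufaf6 0.29 ± 0.09 (adjusted p = 0.36) and Ndufaf7, a methyltransferase, 0.16 ± 0.06 (adjusted p = 0.39).

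The 7 subunits encoded in mitochondrial DNA had a median of 0.03 (0.02 to 0.11) with training, with none called by edgeR, DESeq2 or limma-voom and none at an unadjusted p under 0.05. The 3 with the smallest p-values were mt-Nd1 (0.10 ± 0.07, adjusted p = 0.74), mt-Nd3 (0.11 ± 0.10, adjusted p = 0.79) and mt-Nd4l (0.05 ± 0.10, adjusted p = 0.93). The difference between the nuclear and the mitochondrial medians was not tested. The 40 genes of complexes II to IV and ATP synthase had a median of 0.19 (0.08 to 0.30), with 40 of 40 above 0, none called and 33 at an unadjusted p under 0.05. The 10 listed regulators of respiratory genes had a median of -0.06 (-0.28 to 0.51) and none called. Among them Tfam and Tfb2m act on mitochondrial DNA, and the others on nuclear genes. Ppargc1a, a coactivator of mitochondrial genes, had 0.51 ± 0.23 (adjusted p = 0.51), its relative Ppargc1b -0.28 ± 0.13 (adjusted p = 0.54) and Gabpb1, a subunit of the GABP factor, -0.22 ± 0.12 (adjusted p = 0.60).

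Male and female libraries were then compared within each training state. In trained mice 35 of 35 genes were lower in males, with a median log2 fold change of male over female of -0.22 (-0.34 to -0.01), and 1 passed in edgeR (2.86% of members, against 2.22% of all genes). At an unadjusted p under 0.05, 14 were lower (40%, against 9.31% of all genes). In non-trained mice 34 of 35 were below 0 with a median of -0.16 (-0.36 to 0.08), and 1 passed (against 2.07% of all genes), with 6 at an unadjusted p under 0.05 (17.1%, against 10.1% of all genes). Ndufs4, with 0.08 ± 0.09, was the 1 gene above 0. The median in trained mice was -0.13 without female trained library 2, and that in non-trained mice -0.09 without female non-trained library 1 and -0.10 with library size alone as the scaling. The share of members that passed is near that of all genes in either state.

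Ndufs8 had 60.0 to 80.0 CPM in male trained libraries, against 81.1 to 110 in female trained libraries, so that the groups did not overlap. Its log2 fold change in trained mice was -0.34 ± 0.09 (adjusted p = 0.038). In non-trained mice it had 58.0 to 75.9 CPM in males, against 65.7 to 85.2 in females, with overlap and a log2 fold change of -0.29 ± 0.10 (adjusted p = 0.079). The adjusted p in trained mice was between 0.05 and 0.11 in each of 9 fits that left out 1 library: male trained 1, 3, 4 or 5, male non-trained 2, or female trained 1, 2, 3 or 5.

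Ndufa11, a membrane subunit at the junction with the neighbouring mitochondrial core subunits, had 63.0, 66.2, 49.9, 63.9 and 64.7 CPM in male trained libraries, against 69.8, 90.8, 72.9, 68.8 and 79.0 in female trained libraries. In non-trained mice it had 62.3, 51.9, 51.5, 56.8 and 48.3 CPM in males, against 76.3, 73.8, 57.0, 69.6 and 70.5 in females. Trained males and females did not overlap, and in non-trained mice only female library 3 fell inside the male range. The log2 fold change was -0.31 ± 0.10 in trained mice (adjusted p = 0.064) and -0.36 ± 0.10 in non-trained mice (adjusted p = 0.035). The call in non-trained mice was lost, at an adjusted p of 0.051 to 0.085, in each of 8 fits without female non-trained library 1, 2, 4 or 5 or male non-trained library 2, 3, 4 or 5. Ndufs8 and Ndufa11 were the 2 members without overlap in trained mice (5.71%, against 3.46% of all genes), and in non-trained mice there were none, against 2.39% of all genes. Next by p-value were Ndufb11 in trained mice (-0.28 ± 0.09) and Ndufb2 in non-trained mice (-0.26 ± 0.10).

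Averaged over both training states, a comparison added after the values had been seen, 34 of 35 genes were lower in males, with a median log2 fold change of -0.18 (11.9% lower, range -0.33 to 0.03). In edgeR 10 members passed (28.6%, against 8.03% of all genes), all lower, and 24 had an unadjusted p under 0.05 (68.6%, against 14.7% of all genes). By location 5 of 10 distal membrane arm genes passed, 3 of 9 proximal, 1 of 7 in the Q module and 1 of 8 in the N module, with medians of -0.22, -0.18, -0.16 and -0.11. The differences between locations were not tested. Ndufa11 was lower by -0.33 ± 0.07 (adjusted p = 0.0023) and Ndufs8 by -0.31 ± 0.07 (adjusted p = 0.0029).

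Ndufb2, a small subunit of the distal arm, had 63.1, 62.2, 47.7, 63.1 and 58.1 CPM in male trained libraries, against 63.5, 87.1, 66.5, 62.5 and 72.8 in female trained libraries. In non-trained mice it had 55.0, 52.0, 60.3, 55.9 and 53.0 CPM in males, against 74.9, 72.1, 59.8, 60.8 and 63.7 in females. Overlap was limited to a narrow band in both states, and the log2 fold change was -0.26 ± 0.07 (adjusted p = 0.011). Ndufs5, an accessory subunit on the side of the intermembrane space, had 78.1, 81.6, 65.1, 78.1 and 74.6 CPM in male trained libraries, against 83.5, 102, 81.6, 87.1 and 88.7 in female trained libraries. In non-trained mice it had 71.4, 68.4, 70.8, 75.8 and 64.4 CPM in males, against 97.4, 82.7, 70.3, 78.7 and 73.0 in females. The trained groups touched at 81.6 CPM and the non-trained ones overlapped, with a log2 fold change of -0.21 ± 0.06 (adjusted p = 0.019).

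The other members that passed were Ndufb6 (-0.21, adjusted p = 0.029), Ndufb10 (-0.26, adjusted p = 0.029), Ndufb9 (-0.23, adjusted p = 0.032), Ndufv2 (-0.18, adjusted p = 0.044), Ndufb3 (-0.29, adjusted p = 0.046) and the X-linked Ndufa1 (-0.21, adjusted p = 0.047). The other X-linked gene, Ndufb11, had -0.19 ± 0.07 and did not pass (adjusted p = 0.058). Ndufs4 had 0.03 ± 0.07. Over 20 fits that each left out 1 library, Ndufa11, Ndufs8, Ndufb2 and Ndufs5 passed in all 20, Ndufb6 and Ndufb10 in 16, Ndufb9 in 13, Ndufv2 in 7, Ndufa1 in 6 and Ndufb3 in 3. The number of members called was 4 without male non-trained library 2, female trained library 2 or female non-trained library 1. It was 5 without male non-trained library 3 or female non-trained library 2, 6 without male trained library 3 or male non-trained library 5. Leaving out female non-trained library 3 gave 20.

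Slow fibre and macrophage markers moved with sex, and some markers of other cells did in 1 training state. The 8 slow fibre markers were lower in males, 8 of 8 called over both states with a median of -2.10, and summed to 796 to 2076 CPM in male trained, against 472 to 6155 in female trained, and 348 to 1684 in male non-trained, against 1152 to 4883 in female non-trained libraries. None of them was at 0 in a group. The 6 macrophage markers were higher in males, 6 of 6 called with a median of 1.63, and summed to 94.7 to 632 CPM in male trained, against 53.5 to 104 in female trained, and 120 to 290 in male non-trained, against 31.6 to 104 in female non-trained libraries. Erythroid markers had a median of 2.03 in non-trained mice, 2 of 5 called higher in males, and -0.31 in trained mice with none called. Schwann cell markers had -0.97 in trained mice with none called and 4 of 5 at an unadjusted p under 0.05, and 0.52 in non-trained mice. The 8 muscle fibre markers, Acta1, Ckm, Myh4, Myh1, Tnnt3, Mylpf, Actn3 and Des, had a median of -0.05 over both states. Of these, 1 was called lower in males, Acta1, the skeletal actin (-0.20, adjusted p = 0.029). Several of them are fast fibre genes, so this list does not measure muscle fibres as a whole. The part of these markers in the sex difference of the complex I genes was not tested.

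**Figure D4:**
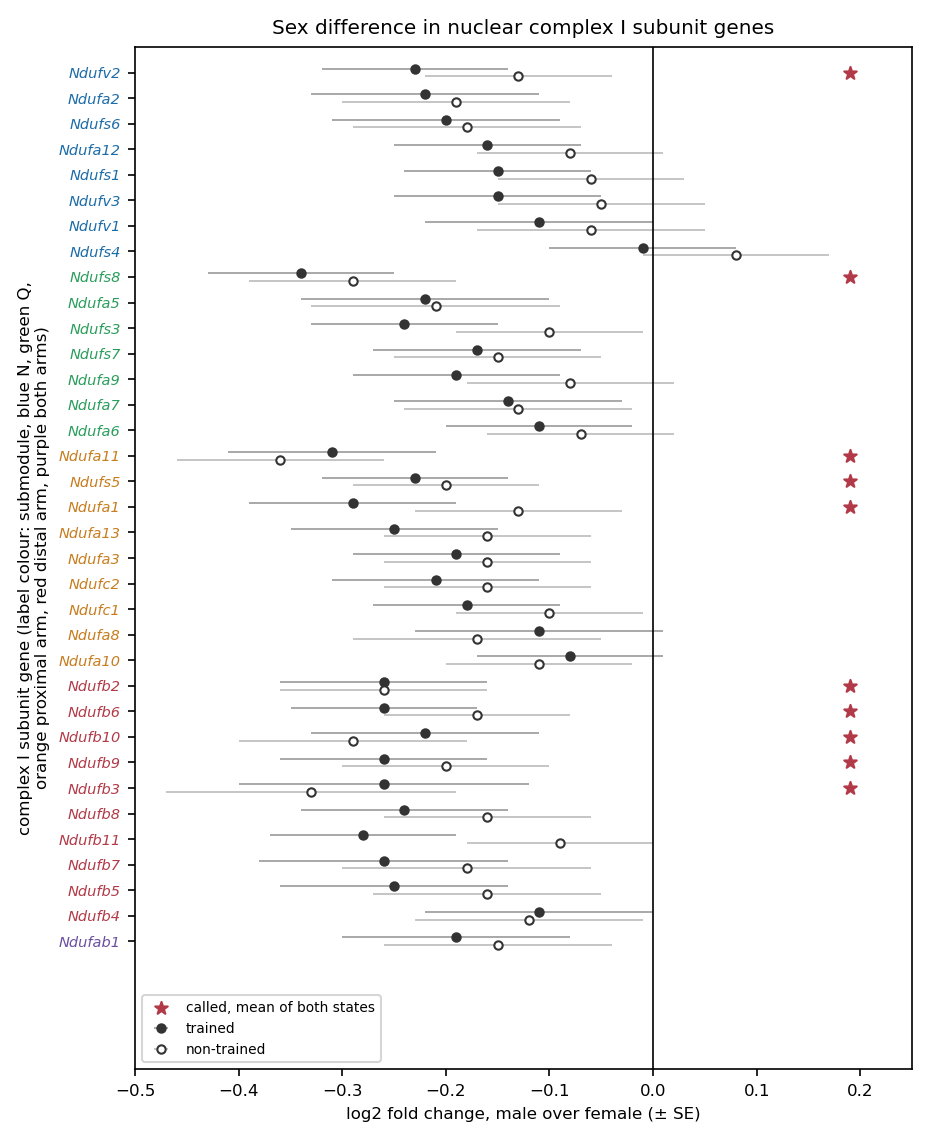
Log2 fold change of male over female libraries with bars of 1 SE for each of the 35 genes, in trained (filled) and non-trained mice (open), with labels coloured by location and stars at the 10 genes that passed an adjusted p of 0.05 over both states. All 35 filled points lie below 0, and Ndufs4 in non-trained mice, at 0.08, is the one open point above it.

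Among the assembly factors the sex difference included larger values than among the subunits. Over both states 5 of 17 were called lower in males, against 8.03% of all genes, with a median of -0.11 (-0.59 to 0.03). Ndufaf5, a methyltransferase-fold enzyme that modifies Ndufs7 during assembly, had 14.2 to 21.6 CPM in male trained, against 24.7 to 34.9 in female trained, and 16 to 23 in male non-trained, against 22.8 to 33.8 CPM in female non-trained libraries. Its log2 fold change was -0.67 ± 0.13 in trained (adjusted p = 0.0036) and -0.52 ± 0.13 in non-trained mice (adjusted p = 0.020). Ndufaf1, an early factor of the membrane arm, had 22.9 to 28.5 CPM in male trained, against 30.4 to 35.3 in female trained, and 19.2 to 27.1 in male non-trained, against 28.4 to 33.9 CPM in female non-trained libraries. Male and female libraries did not overlap for Ndufaf1 in either state, with log2 fold changes of -0.29 ± 0.08 (adjusted p = 0.041) and -0.38 ± 0.08 (adjusted p = 0.0091). Of all genes, 3.46% were lower in males without overlap in trained and 2.39% in non-trained mice.

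The other 3 factors called over both states were Ecsit (-0.19, adjusted p = 0.015), Ndufaf8 (-0.37, adjusted p = 0.022) and Timmdc1 (-0.24, adjusted p = 0.045). Acad9, which had the smallest training p of the list, had 0.02 ± 0.05 (adjusted p = 0.82) between the sexes. These sex values of assembly factors were named after they had been seen. Among the 7 subunits of mitochondrial DNA 1 was called lower in males, mt-Nd3 (-0.39 ± 0.10, adjusted p = 0.0077), and the median was -0.04. The 40 genes of the other complexes had a median of -0.18, with 11 called lower, against 8.03% of all genes. Of the 10 regulators 1 was called lower, Tfam, which packages mitochondrial DNA (-0.20 ± 0.06, adjusted p = 0.019). For the regulators this is near the share of all genes.

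**Figure D5:**
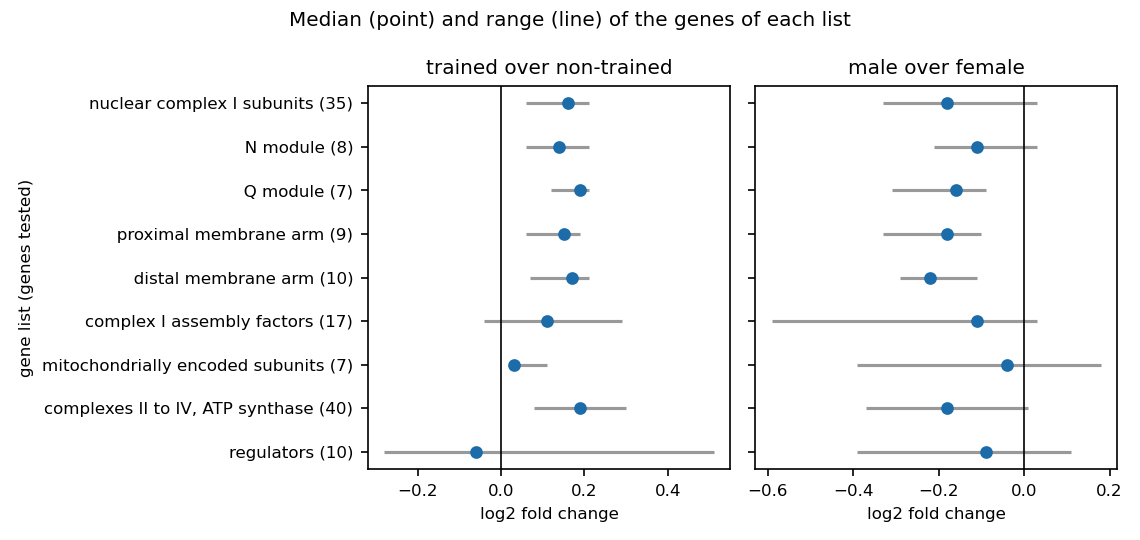
Median (point) and range (line) of the log2 fold changes of each gene list, over both sexes for trained over non-trained libraries (left) and over both training states for male over female libraries (right). Training medians are 0.16 for the 35 subunits, 0.11 for assembly factors and 0.03 for the mitochondrially encoded subunits, and sex medians are -0.18, -0.11 and -0.04 in the same order.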

How the data were processed

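RNA-seq of 20 wild type muscle libraries was used. Per the submitters' processing notes, reads were trimmed with Trim Galore and cutadapt, aligned with STAR 2.5.1 to GRCm38 and quantified with RSEM 1.3.1. The authors deposited per gene an expected count, a TPM value and an FPKM value, per the file headers. FPKM was not used. The sources used here do not name an annotation release. GENCODE M21 names 53360 of the 53465 identifiers, and the others held 0.00673% of counts.

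Expected counts were rounded, filtered with filterByExpr (minimum count 10), scaled by TMM and fitted with edgeR 4.0.16 (R 4.3.3) with 1 coefficient per group over all 20 libraries (16 residual degrees of freedom). The quasi-likelihood test was adjusted by Benjamini-Hochberg over 15709 genes at 0.05. The SE of a log2 fold change was derived from this test, as its absolute value divided by the square root of the F statistic. CPM values use the same scaling. The summed marker levels use library totals. The script was tested on simulated data. Alternatives used DESeq2 1.42.0, limma 3.58.1 (log2(TPM + 1) or voom), other scalings and filters, and leaving out each library.

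The members, locations and lists were chosen with earlier results of these data known. Values per library were given for the 2 members of each location with the smallest p for training, for Ndufab1, for members called (at most 4 per comparison) and for the member with the largest training p. Replicate numbers follow accession order and pair nothing. Promoters are from RefSeq.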

Additional observations from a re-analysis of the deposited data

Results flagged for a closer look

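In 9 cases 1 library of a group of 5 stood apart from the other 4 by a gap, as a share of the group's range, above Dixon's 95% critical value. Chance alone flags about 1 in 20 groups, 56 were examined, and since the genes move together the cases are not independent. Male trained library 3 stood low with Ndufs1 at 299 CPM, Ndufs8 at 60.0 CPM, Ndufa11 at 49.9 CPM and the mean over the 35 genes at 6.35 log2 CPM. Female non-trained library 3 stood low with Ndufs8 at 65.7 CPM, Ndufa9 at 132 CPM and Ndufb3 at 46.8 CPM. Female non-trained library 1 stood high with Ndufc1 at 86.4 CPM, and male non-trained library 1 stood high with Ndufab1 at 107 CPM.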

How the results depend on the processing

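No paired analysis was possible because the labels give no replicate numbers that could pair samples across groups. No member was called for training, or for its difference between the sexes, under any alternative run. The training median over both sexes was 0.11 to 0.16 on the log2 scale under other tools, scalings and filters, and 0.12 to 0.19 with 1 library left out. For the sex difference in trained mice, 1 member was called, against 2 with DESeq2, 0 with library size alone, without the low-count filter or with only the groups compared, and 0 to 1 with 1 library left out. In non-trained mice 1 was called, against 2 with DESeq2, 0 with library size alone or only the groups compared, and 0 to 3 with 1 library left out. Over both states 10 were called, against 15 with DESeq2, 3 with library size alone and 4 to 20 with 1 library left out. With 1 library left out the median over the members ran from 0.09 to 0.20 for training in males, 0.10 to 0.23 for training in females, -0.11 to 0.03 for the difference between these effects, -0.24 to -0.13 between the sexes in trained mice and -0.22 to -0.09 in non-trained mice. Fold changes near 0 changed sign. Ndufa1 in males was 0.00 without the filter, and -0.05 to 0.05 with 1 library left out (above 0 without male trained library 3 or male non-trained library 1). With 1 library left out, Ndufa12 in males ran from -0.03 to 0.07 (below 0 without male trained library 1 or 4 or male non-trained library 5), Ndufb3 in females from -0.07 to 0.09 (below 0 without female trained library 2 or female non-trained library 3) and Ndufb4 in females from -0.03 to 0.15 (below 0 without female trained library 1). Among 1646 values, under alternatives, of the members named in each comparison, 1610 kept direction and call, 22 lost the call, 5 gained it and 9 changed sign. Over all genes, DESeq2 called 24 for training over both sexes, against 2 in edgeR, and 1401 and 1465 between the sexes in trained and non-trained mice, against 880 and 818 in edgeR. The causes were not tested.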
